A study of Mus musculus with 9 samples.

Results

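Of the 43629 genes in the deposited table, 22 were high only in the double mutant, c-KIT+ bone marrow cells with both the Cbfb+/56M fusion allele and floxed Chd7. A gene was counted when its lowest value in the 3 double mutant libraries was at least 50 and at least 2 times its highest value over the 6 other libraries. These measured values chose the genes, so the double mutant levels below are a description and carry no test. The 3 groups, each with 3 libraries, were WT, mice carrying Mx1-Cre and Cbfb+/56M (KI), and mice carrying Mx1-Cre, Cbfb+/56M and Chd7f/f (KI_Chd7del). All 9 samples were labelled C57BL/6, had received pIpC and were total RNA from marrow cells taken by magnetic selection for c-KIT. The labels give neither the ages nor the time between pIpC and harvest, and leave unsaid whether each library is a mouse of its own, so the p-values cover only the spread between these samples, which may be technical. Cre is driven by the interferon-responsive Mx1 promoter and is thus not restricted to 1 blood cell type, and the WT label names no Cre.

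Cbfb+/56M is a conditional allele that makes the CBFB-MYH11 fusion of human acute myeloid leukaemia after Cre acts. CBFB is the partner that helps RUNX factors hold DNA, and the fusion disturbs RUNX target genes in blood progenitors. Chd7 encodes a chromatin remodelling ATPase that moves nucleosomes at enhancers and promoters, and the series title names its loss as delaying the leukaemia that the fusion causes. The 22 genes did not form 1 known pathway. They included interferon-inducible p200 genes, stem cell genes, imprinted genes and immunoglobulin segments, and these are taken in turn below.

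The values are read numbers scaled per library and rounded, called normalised values, with library totals of 37538447 to 46159426. Myh11 was at 5 to 9 (WT), 176 to 219 (KI) and 164 to 187 (KI_Chd7del). Chd7 was at 3471 to 3982, 1979 to 2934 and 1794 to 1921, in the same order. Chd7 was lower in KI than in WT (log2 -0.72, limma adjusted p = 0.00154), and KI_Chd7del did not pass the test against KI (log2 -0.29, limma adjusted p = 0.121). The values are per gene, and which exons were read is not given, so they do not check the deletion. Kit, the gene of the selected receptor, was at 7354 to 7797 (WT), 3226 to 3868 (KI) and 6131 to 8508 (KI_Chd7del). Kit was lower in KI than in WT (log2 -1.09, limma adjusted p = 3.88e-05). In KI_Chd7del it was higher than in KI (log2 1.07, limma adjusted p = 0.000212) and did not pass the test against WT (log2 -0.02, limma adjusted p = 0.889). The 9 other genes of the c-KIT+ progenitor list were above 0 in each of the 9 libraries. Of that list 4 of 10 tested were higher in KI_Chd7del than in both other groups, as were 4.42% of all genes tested. Cell type markers differed widely between the groups: the late neutrophil list summed to 4526948 to 5653139 (WT), 169160 to 773869 (KI) and 1380784 to 1774072 (KI_Chd7del), and the mast cell and basophil list to 27370 to 29510, 130207 to 205426 and 64334 to 85730. No gene of the eosinophil, mast cell and basophil, late neutrophil, monocyte, T and NK cell or erythroid lists was higher in KI_Chd7del than in both other groups. For megakaryocyte genes 3 of 14 were, for dendritic cell and class II genes 3 of 17, for early granule genes 1 of 10 and for plasma cell genes 1 of 9, beside the same 4.42%. The part of cell composition in the values of the 22 genes was not tested.

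High expression in the double mutant alone was rare. The 22 genes made up 0.184% of the 11949 genes whose lowest KI_Chd7del value was at least 50. The same rule with KI as the high group found 386 genes, and with WT as the high group 270. Turned round, 17 genes were low only in KI_Chd7del. The count was sensitive to 1 library: leaving out KI_Chd7del library 1 raised it from 22 to 54. Near the ratio on its inner side were Ppp1r26 at 2.04 and Vipr2 at 2.04, and nearest outside were Nwd1 at 1.91, Col4a2 at 1.84 and Epb41l4b at 1.84. Nearest above the floor were Fgd5 with a lowest value of 51, Gm2539 with 86 and Ighv3-2 with 88, and nearest below were H60b with 43, Nkx2-3 with 42 and Ceacam3 with 41.

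**Figure D1:**
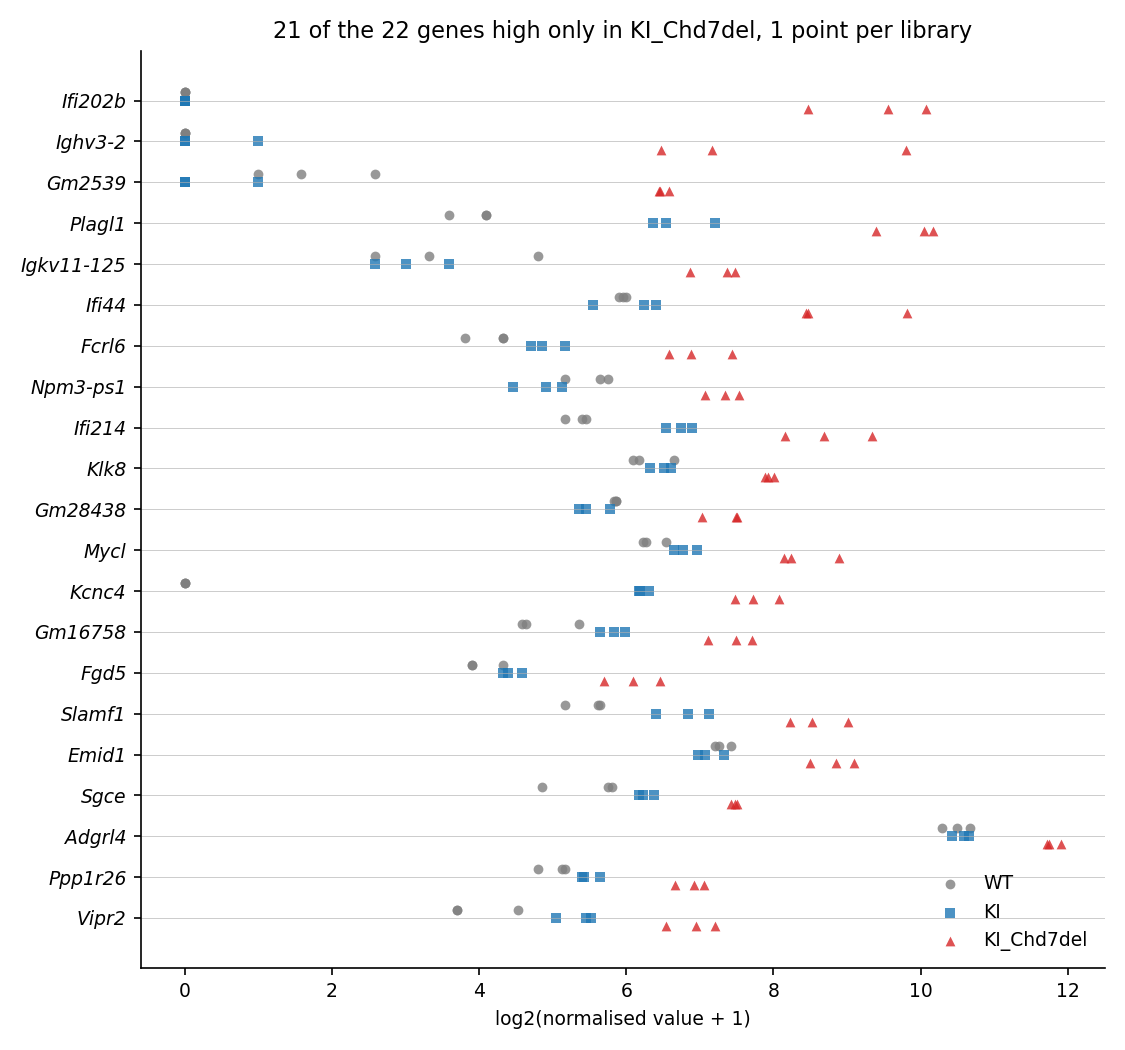
Normalised values of 21 of the 22 genes on a log2(value + 1) axis, 1 point per library, with WT as circles, KI as squares and KI_Chd7del as triangles. In each row the 3 triangles lie to the right of the 6 other points, which is how the genes were chosen, and the gap is widest for Ifi202b, listed at 0 outside KI_Chd7del.

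The largest contrast belonged to the p200 family, interferon-inducible proteins of the nucleus and cytoplasm, several of which bind DNA. Ifi202b (ENSMUSG00000026535, chromosome 1, 173962568 to 173982744, GRCm38), a p200 protein with DNA-binding domains, was listed at 0 in all 6 WT and KI libraries and at 355, 1074 and 751 in KI_Chd7del libraries 1, 2 and 3. No fold can be given against groups listed at 0. As background, the level of this gene is known to differ between inbred mouse strains. The labels give only the strain name C57BL/6 for every sample, and the part of strain background in these values was not tested. Ifi214 (chromosome 1, 173519717 to 173535957), another p200 gene, was at 41, 43 and 35 (WT), 92, 106 and 118 (KI) and 284, 412 and 650 (KI_Chd7del). For Ifi214, WT and KI did not overlap, while the rule itself set KI_Chd7del above both. KI exceeded WT in the test that the rule did not use (log2 difference on the log2(value + 1) scale 1.38, SE 0.27, limma adjusted p = 0.00182). In bulk RNA, more cells of a type and more RNA per cell cannot be told apart, here and in all that follows.

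The upstream windows of these 2 genes, the 250 bases before the RefSeq start in build GRCm38.p6, are shown because family members with unlike levels can be compared in them. The letters are those of the build, and the DNA of these mice was not read. The Ifi202b window is chr1:173982845-173983094 and the Ifi214 window chr1:173535958-173536207, both on the minus strand and written 5′ to 3′. Capitals mark a pair of GAAA repeats with 2 free bases between them, on either strand, the core of the element bound by interferon-activated factors.
Ifi202b: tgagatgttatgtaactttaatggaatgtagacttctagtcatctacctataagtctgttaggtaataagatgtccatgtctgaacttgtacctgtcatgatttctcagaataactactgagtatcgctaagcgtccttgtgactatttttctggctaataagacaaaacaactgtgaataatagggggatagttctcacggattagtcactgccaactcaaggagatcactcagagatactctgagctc
Ifi214: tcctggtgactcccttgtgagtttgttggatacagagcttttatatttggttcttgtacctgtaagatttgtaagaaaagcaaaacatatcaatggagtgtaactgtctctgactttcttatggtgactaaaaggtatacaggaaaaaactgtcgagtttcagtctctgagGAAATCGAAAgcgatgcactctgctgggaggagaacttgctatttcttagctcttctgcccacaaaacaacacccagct
Ifi214 held 1 match, at position -79 from its start, and Ifi202b held none. Of all 32851 promoter windows of this length, 2.98% held a match, and 1 of the 16 windows of these genes did.

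Of 11 other p200 genes tested, 7 rose in KI against WT and none fell, where 31.8% of all genes tested were higher and 27.2% lower. In KI_Chd7del against KI, 1 rose and 4 fell. Of all genes tested, 40.4% were called in that comparison, 17.5% higher and 22.9% lower. The riser was Ifi205, at 76, 99 and 94 (WT), 108, 143 and 71 (KI) and 184, 283 and 372 (KI_Chd7del) (log2 1.37 against KI, limma adjusted p = 0.00737). Ifi207 went the other way, with 2063, 1469 and 1449 (KI) against 185, 344 and 607 (KI_Chd7del; log2 -2.27, limma adjusted p = 0.00183). In the same comparison Ifi204 fell by 2.13 on the log2 scale and Ifi211 fell by 1.75 (limma adjusted p = 0.00286 and 0.00147). Aim2, the sensor of cytosolic DNA that starts inflammasomes, fell by 0.45 (limma adjusted p = 0.0204).

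Ifi44 (chromosome 3, 151730922 to 151749960), an interferon-induced protein of the cytoplasm, was at 59, 63 and 61 (WT), 75, 84 and 46 (KI) and 346, 352 and 900 (KI_Chd7del). Ifi44 did not pass the test in KI against WT (log2 0.12, SE 0.37, limma adjusted p = 0.8). Among the 38 other tested genes of the interferon list, none rose in KI_Chd7del against KI and 4 fell, where 17.5% and 22.9% of all genes tested did. Against WT 12 rose and 2 fell, where 24% and 24.3% of all genes were called, 48.4% in all. The median of these 38 genes relative to the WT mean was -0.16 in KI_Chd7del library 1, 1.03 in library 2 and 1.78 in library 3 on the log2 scale, and 0.46 to 0.93 in the KI libraries. The KI_Chd7del libraries therefore differed widely in interferon transcripts. Ifit3, an interferon-induced antiviral protein, had 38, 431 and 975 in these libraries. Ifi44 and Ifi214 are high in all 3 of these libraries because the rule asked for it.

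**Figure D2:**
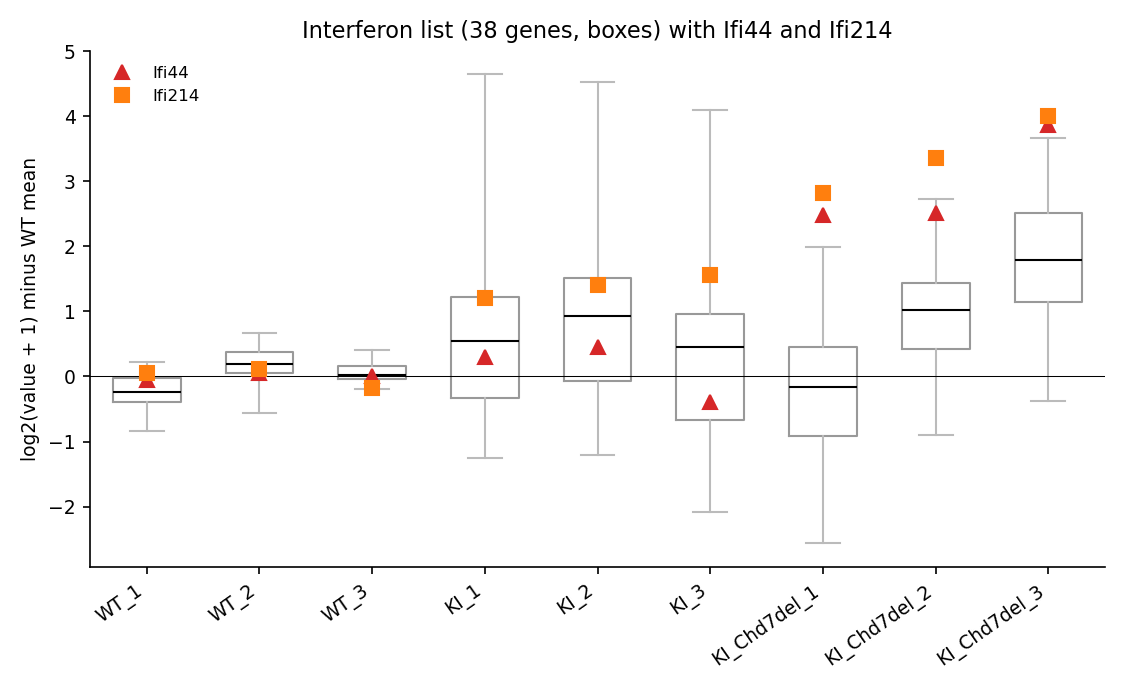
Level of the 38 other interferon list genes in each library as log2(value + 1) minus each gene's WT mean (box, 25th to 75th percentile with median; whiskers, lowest and highest), with Ifi44 as triangles and Ifi214 as squares. The list median was lowest among the mutant libraries in KI_Chd7del library 1, at -0.16, and the height of the triangles and squares in the KI_Chd7del libraries follows from how the genes were chosen.

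Ifi202b and Ifi214 had further neighbours among the 22 genes. Slamf1, Fcrl6, Ifi214 and Ifi202b all lay within 2.22 Mb of chromosome 1 (171767127 to 173982744), and chromosome 1 held 5 of the 22 genes (22.7%) against 6.1% of the 11949 genes that met the floor. The other gene there, Gm28438, lay 147154 kb from Slamf1. Chromosome 6 held 4 of the 22 (18.2%, against 5.1%) and chromosome 3 held 3 (13.6%, against 4.7%). Slamf1 (171767127 to 171801184) encodes the CD150 receptor used to isolate blood stem cells, and had 49, 48 and 35 (WT), 114, 84 and 138 (KI) and 299, 516 and 368 (KI_Chd7del). Slamf1 rose in KI against WT (log2 1.32, SE 0.26, limma adjusted p = 0.00174). Fcrl6 (172596642 to 172602551), of the Fc receptor-like family, had 13, 19 and 19 (WT), 28, 35 and 25 (KI) and 95, 117 and 173 (KI_Chd7del). In KI against WT Fcrl6 was at 0.76 (SE 0.27, limma adjusted p = 0.0386), a call lost in 11 of 20 other settings (limma adjusted p 0.0535 to 0.157 in these), 6 of which leave out 1 library: WT library 1, 2 or 3, KI library 1 or 2, or KI_Chd7del library 2. WT and KI did not overlap for either gene, while KI_Chd7del could not overlap them under the rule.

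The 38 other tested genes between Slamf1 and Ifi202b did not move as a block. The interval was chosen after these 4 genes were seen. Against KI, 3 were higher and 16 lower in KI_Chd7del, where 17.5% and 22.9% of all genes tested were. The median log2 difference was -0.42 beside -0.01 over all genes tested. Against WT, 14 were higher and 6 lower, where 24% and 24.3% of all genes tested were. The 3 that were higher against both were Vangl2, a planar polarity protein, Igsf8, a membrane immunoglobulin-type protein, and the unnamed gene model Gm38050, where 4.42% of all genes were higher against both. Gm38050 was at 1, 0 and 0 (WT), 2, 1 and 0 (KI) and 12, 23 and 17 (KI_Chd7del). The count of 3 was 1 without KI_Chd7del library 2 and 1 without library 3, and 6 genes were called in an interval 1 Mb wider on each side. The largest falls against KI were those of Cadm3, a cell adhesion molecule, from 373, 689 and 609 to 35, 35 and 99, and of Ackr1, an atypical chemokine receptor, from 981, 707 and 1236 to 134, 180 and 72.

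**Figure D3:**
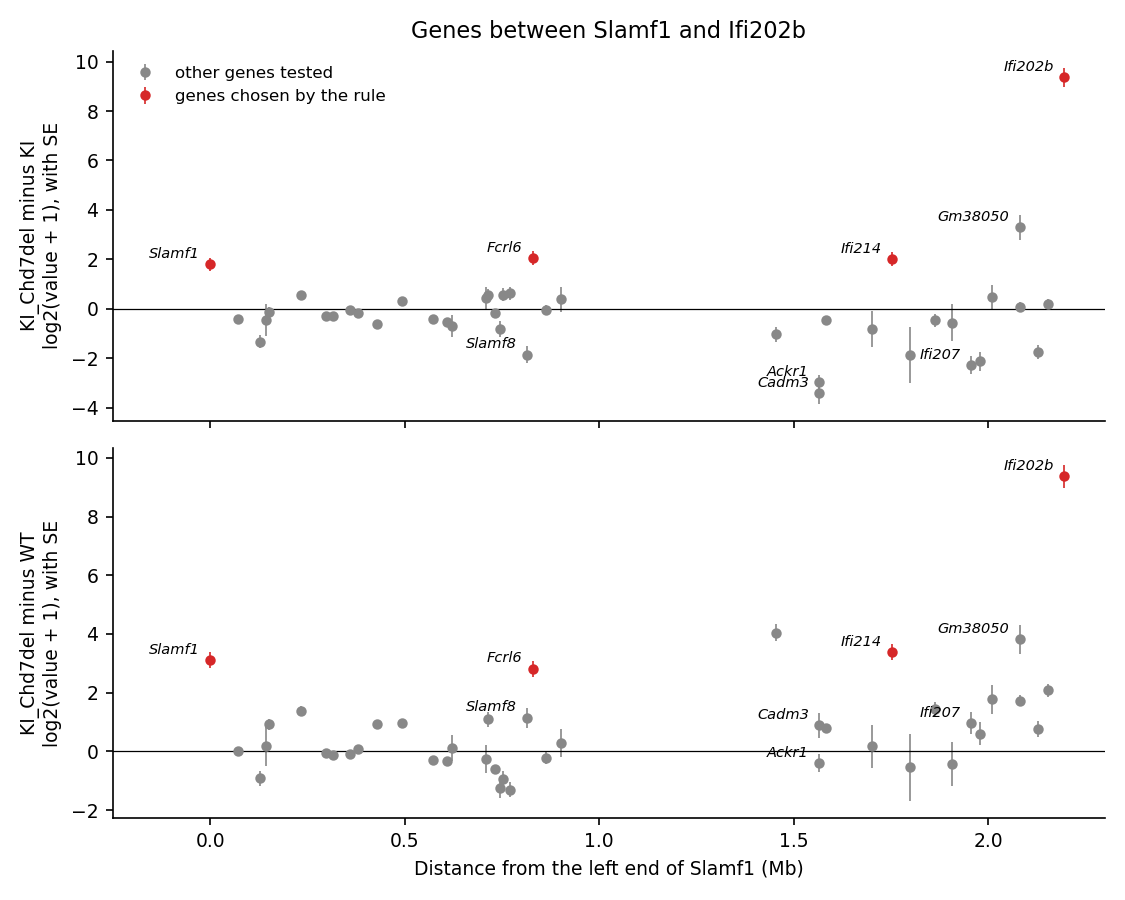
Genes tested between Slamf1 and Ifi202b by distance from the left end of Slamf1, with the log2(value + 1) difference of KI_Chd7del from KI above and from WT below, and bars of 1 SE. The 4 genes chosen by the rule lie above 0 among neighbours that go in both directions, 3 higher and 16 lower against KI, and the height of Ifi202b depends on the pseudocount.

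Stem cell genes formed another group. Slamf1, above, and Fgd5 are both on the stem cell list of 20 genes. Fgd5 (chromosome 6, 91978878 to 92076004), an exchange factor for a small GTPase whose locus marks blood stem cells, was at 14, 19 and 14 (WT), 20, 19 and 23 (KI) and 51, 87 and 67 (KI_Chd7del). WT and KI overlapped (log2 0.39, SE 0.25, limma adjusted p = 0.214). Of the 18 other list genes, 10 rose and 3 fell in KI_Chd7del against KI, where 17.5% and 22.9% of all genes tested did. Against WT 14 rose and 1 fell, where 24% and 24.3% of all genes tested did. Their median log2 differences were 0.66 and 1.38, beside -0.01 and 0.02 over all genes tested. Both comparisons use the same KI_Chd7del libraries.

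In all, 9 of these 18 (50%) were higher than in both other groups, where 4.42% of all genes were. They were Procr, Vldlr, Meis1, Mecom, Esam, Robo4, Cd34, Hoxa9 and Mycn. Procr, the protein C receptor that marks stem cells, had 27, 20 and 29 (WT), 84, 61 and 79 (KI) and 107, 195 and 167 (KI_Chd7del) (log2 1.03 against KI, limma adjusted p = 0.0135). Mecom, a stem cell transcription factor, had 71, 46 and 51, then 89, 85 and 102, then 115, 285 and 203 in the same order of groups (log2 1.03 against KI, limma adjusted p = 0.0273). Esam, an adhesion molecule, had 45, 45 and 59, then 49, 43 and 58, then 93, 140 and 175 (log2 1.39 against KI, limma adjusted p = 0.00288). The 3 that fell against KI were Tek, Hlf and Ctnnal1, each still above WT. Mllt3 was the 1 that fell against WT (log2 -0.23, limma adjusted p = 0.0373). The count of 9 fell to 3 without KI_Chd7del library 2 and to 4 without library 3.

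**Figure D4:**
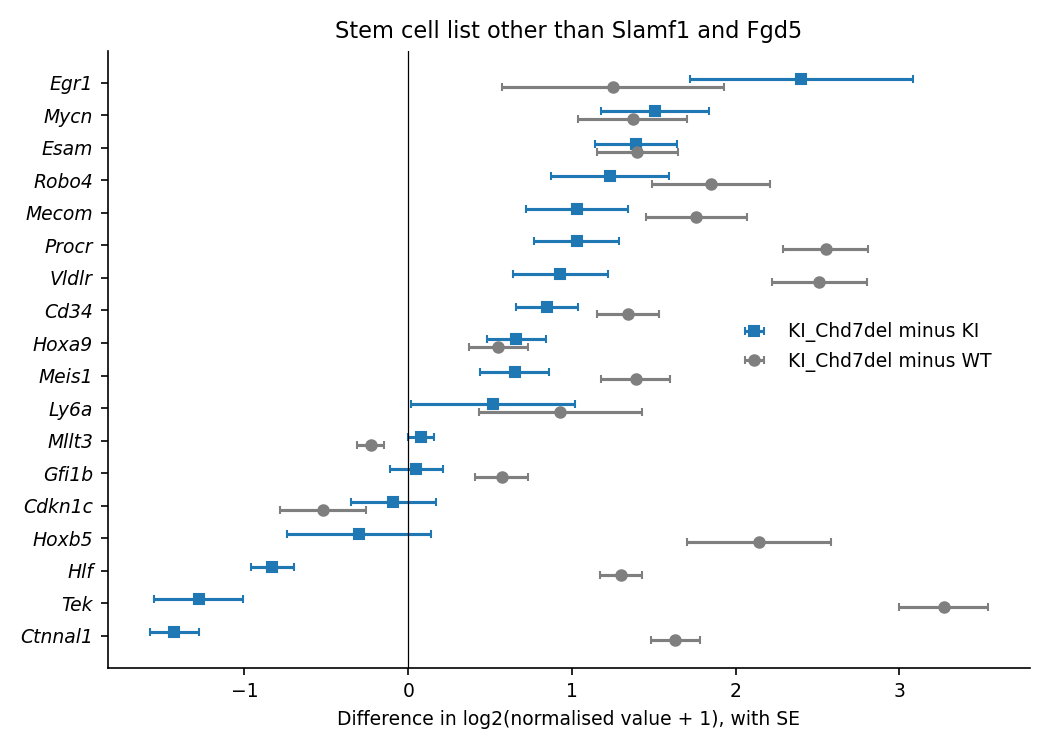
The 18 other stem cell list genes, with the difference of KI_Chd7del from KI (squares) and from WT (circles) on the log2(value + 1) scale and bars of 1 SE. Most squares and circles lie to the right of 0, with 10 risen against KI and 14 against WT. Tek, Hlf and Ctnnal1 were called lower against KI and lie to the left against KI alone. Hoxb5 also lies to the left against KI alone and Cdkn1c in both, without passing the test. Mllt3 lies to the left against WT alone and was called lower there.

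Adgrl4 (chromosome 3, 151437887 to 151545086), an adhesion G protein-coupled receptor known from endothelium, was at 1633, 1250 and 1449 (WT), 1374, 1535 and 1615 (KI) and 3355, 3842 and 3430 (KI_Chd7del). WT and KI were interleaved (log2 0.07, SE 0.1, limma adjusted p = 0.595). Adgrl4 lies 185.8 kb from Ifi44, the nearest pair among the 22 genes. In the stromal and endothelial list, 2 of 10 tested genes were higher than in both other groups (4.42% of all genes were), Pecam1 and Emcn, both also found on stem cells. The summed values of that list were 2312 to 2664 (WT), 4610 to 5708 (KI) and 4360 to 5577 (KI_Chd7del), and the part of such cells in the Adgrl4 value was not tested. Mycl (chromosome 4, 122995652 to 123002485), a MYC family transcription factor, had 76, 74 and 92 (WT), 99, 108 and 124 (KI) and 475, 281 and 300 (KI_Chd7del). KI lay above WT for Mycl in each library, yet the difference did not pass (log2 0.45, SE 0.21, limma adjusted p = 0.095).

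Plagl1 and Sgce are imprinted genes that are expressed from the paternal copy. Plagl1 (chromosome 10, 13060504 to 13131694), a zinc finger transcription factor that restrains growth, was at 16, 11 and 16 (WT), 92, 147 and 81 (KI) and 1151, 1061 and 675 (KI_Chd7del). Its KI_Chd7del mean of 962 ± 253 (SD, n = 3) was 67.1 times that of WT and 9.02 times that of KI. Plagl1 rose in KI against WT (log2 2.78, SE 0.28, limma adjusted p = 3.44e-05). Sgce (chromosome 6, 4674350 to 4747207), epsilon-sarcoglycan of the plasma membrane, was at 53, 28 and 55 (WT), 71, 74 and 82 (KI) and 170, 178 and 181 (KI_Chd7del). The KI_Chd7del libraries were closer together for Sgce than for any other of the 22 genes, with a ratio of highest to lowest of 1.06. In KI against WT Sgce was higher by 0.78 (SE 0.25, limma adjusted p = 0.0213), a call lost with quantile normalisation (0.0833) and without KI library 3 (0.0658).

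A list of 24 imprinted genes was written after these 2 had been seen. Of the 11 other members tested, 3 were higher in KI_Chd7del than in both other groups and 1 was lower, where 4.42% and 4.96% of all genes were. Peg10, the imprinted neighbour of Sgce, had 18, 19 and 27 (WT), 16, 37 and 15 (KI) and 30, 59 and 72 (KI_Chd7del), where KI library 2 overlapped with KI_Chd7del library 1 (log2 1.24 against KI, limma adjusted p = 0.0427). Ndn, necdin, had 9, 5 and 2, then 6, 3 and 6, then 13, 22 and 24 (log2 1.79 against KI, limma adjusted p = 0.0162). The other riser was Ppp1r9a (log2 0.51 against KI, limma adjusted p = 0.0491), and the one that was lower was Zrsr1. Igf2r, which clears insulin-like growth factor 2, had another pattern, with 4366, 4905 and 5422 (WT), 216, 350 and 191 (KI) and 571, 561 and 792 (KI_Chd7del).

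Several of the remaining coding genes act in signalling or transport. Kcnc4 (chromosome 3, 107438303 to 107459552), a voltage-gated potassium channel, was listed at 0 in all 3 WT libraries, at 78, 72 and 71 in KI, and at 268, 177 and 210 in KI_Chd7del. Kcnc4 had the largest difference between KI and WT among the 22 genes (limma adjusted p = 1.43e-07). Vipr2, a receptor of vasoactive intestinal peptide, was at 22, 12 and 12 (WT), 32, 45 and 43 (KI) and 92, 147 and 122 (KI_Chd7del), and rose in KI against WT (log2 1.37, SE 0.29, limma adjusted p = 0.00303). An antisense gene model, Gm20658, overlaps Vipr2 and had 14 to 21, 115 to 190 and 144 to 261 in the 3 groups. Strand-specific counting is not stated, so reads of the pair cannot be told apart.

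Klk8, a secreted serine protease, was at 99, 71 and 67 (WT), 90, 79 and 97 (KI) and 243, 235 and 256 (KI_Chd7del). Emid1, an extracellular matrix protein, was at 147, 153 and 171, then 159, 125 and 134, then 360, 459 and 544. For Klk8 and Emid1, WT and KI overlapped and did not pass the test. Ppp1r26, a regulatory subunit of a protein phosphatase, was at 34, 27 and 35, then 42, 41 and 49, then 132, 100 and 120, with KI above WT in each library (log2 0.45, limma adjusted p = 0.0676).

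Immunoglobulin variable segments are transcribed in B lineage cells, each cell using few of the many segments. Ighv3-2 (chromosome 12, 114033803 to 114034233), annotated as a pseudogene, was listed at 0 in 5 of the 6 WT and KI libraries and at 1 in KI library 3, and at 88, 888 and 142 in KI_Chd7del. The spread of Ighv3-2 within KI_Chd7del was the widest of the 22 genes, with library 2 at 10.09 times library 1. Igkv11-125, a kappa light chain segment, had 9, 27 and 5 (WT), 7, 11 and 5 (KI) and 116, 177 and 164 (KI_Chd7del). Of 171 other segments tested, 4 (2.34%) were higher and 39 lower in KI_Chd7del than in both other groups, where 4.42% and 4.96% of all genes were. Against KI alone 5 were higher and 47 lower, where 17.5% and 22.9% of all genes tested were. Against WT alone the counts were 4 and 93, where 24% and 24.3% of all genes tested were called. Ighv3-2 is close in sequence to Ighv3-1 and Ighv3-6 (95.1% and 91.4% identity), so the counting could have divided reads between them. Ighv3-1 had 134, 91 and 20 (WT), 241, 180 and 52 (KI) and 17, 53 and 22 (KI_Chd7del). Summed with Ighv3-2 it gave 105, 941 and 164 in KI_Chd7del, a sum that would not meet the rule, since Ighv3-1 alone reached 241 in KI. Ighv3-6 had 1122, 361 and 10549 (WT), 574, 383 and 739 (KI) and 460, 142 and 134 (KI_Chd7del).

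Against both other groups 8 of the 20 genes of the B cell list (40%, beside 4.42% of all genes) were higher in KI_Chd7del, among them Ebf1, Dntt, Cd79b, Vpreb1, Vpreb3, Igll1 and Vpreb2. Vpreb1, Vpreb2 and Igll1 belong to the precursor B cell receptor, and Dntt is the terminal transferase of rearranging cells. Dntt had 1776, 1062 and 1075 (WT), 2568, 3477 and 3730 (KI) and 5179, 5969 and 8447 (KI_Chd7del) (log2 0.99 against KI, limma adjusted p = 0.0115). Against KI alone 11 of the list were higher and 1, Blnk, was lower, where 17.5% and 22.9% of all genes tested were. Against WT alone 13 were higher and 5 lower, where 24% and 24.3% of all genes tested were. Those 5 were Cd72, Ly6d, Cd22, Bank1 and Ms4a1. Ms4a1, the CD20 antigen of mature B cells, had 744, 993 and 769, then 56, 44 and 35, then 28, 44 and 232. The summed values of the B cell list were 73336 to 270020 (WT), 54547 to 120745 (KI) and 51577 to 88677 (KI_Chd7del), led by Ighm, and no list gene was at 0 in all libraries of a group. The part of B lineage cells in the values of Ighv3-2 and Igkv11-125 was not tested. Without KI_Chd7del library 3 the count of 8 was 5.

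The last 4 genes are pseudogenes or an antisense transcript. Gm2539, a transcribed pseudogene on chromosome 10, was at 2, 1 and 5 (WT), 1, 0 and 0 (KI) and 86, 87 and 95 (KI_Chd7del), with the third largest contrast of the 22 genes. H60b, which encodes a ligand of an activating receptor of natural killer cells, lies 55.3 kb away and missed the floor, with 6, 7 and 6 (WT), 5, 15 and 4 (KI) and 44, 43 and 61 (KI_Chd7del). Npm3-ps1 had 49, 53 and 35 (WT), 29, 21 and 34 (KI) and 161, 134 and 185 (KI_Chd7del), and shares 98.9% of its sequence with the parent gene Npm3. Npm3 had 2656 to 2947 (WT), 2084 to 2201 (KI) and 2553 to 2974 (KI_Chd7del), far above Npm3-ps1 in each library. The sums of the pair were 2691 to 2996, 2105 to 2230 and 2738 to 3135, and how reads were divided between them is not stated.

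Gm28438 is a nuclear copy of mitochondrial sequence on chromosome 1, with 99.7% identity to mt-Nd3, a subunit of respiratory complex I. It was at 57, 57 and 56 (WT), 54, 40 and 43 (KI) and 130, 181 and 179 (KI_Chd7del). Summed with mt-Nd3, the values were 413, 361 and 338 (WT), 316, 268 and 283 (KI) and 649, 391 and 379 (KI_Chd7del), a sum that would not meet the ratio of 2. The mitochondrial share of each library was 1.53% to 1.62% (WT), 1.83% to 2.06% (KI) and 2.18% to 2.97% (KI_Chd7del), and their part in the Gm28438 values was not tested. Gm16758, antisense to Mdga1, was at 40, 24 and 23 (WT), 56, 49 and 62 (KI) and 137, 209 and 179 (KI_Chd7del). Mdga1 itself, a membrane-anchored adhesion protein, had 168 to 230, 559 to 793 and 1036 to 1725, and without stated strand the reads of the pair cannot be told apart.

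KI against WT is the comparison that the rule did not use, and it asked whether these genes already differed in mice with the fusion allele and no floxed Chd7 in their label. With limma, 8 of the 22 genes (36.4%) rose in KI and 2 fell, where 31.8% and 27.2% of all 15997 genes tested did (58.9% in either direction). The share that rose was thus near that of all genes. The risers were Kcnc4, Plagl1, Ifi214, Vipr2, Slamf1, Gm16758, Sgce and Fcrl6. The 2 that fell were Npm3-ps1 (log2 -0.69, SE 0.25, limma adjusted p = 0.0359) and Gm2539 (log2 -1.39, SE 0.45, limma adjusted p = 0.0238), the latter at 5 or less in all 6 libraries, with overlapping groups, and tested only because its KI_Chd7del values met the filter, so that its call says little. The call of Npm3-ps1 was lost in 9 of 20 other settings, without WT library 1 or 2 or KI library 1 or 2 among them, and that of Gm2539 in 5 of 17, without WT library 3 or KI library 2 or 3 among them. The number that fell ranged from 0 to 4 over the other settings. The KI_Chd7del values alone were enough to bring all 22 genes into the test. Among the 19 whose WT and KI libraries averaged at least 10, 8 rose and 1 fell. Of the 9713 genes averaging from 10 to the highest of the 22 genes, Adgrl4 at 1480, 32.6% rose and 21.7% fell. That range is wide, so the comparison is not matched for level.

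**Figure D5:**
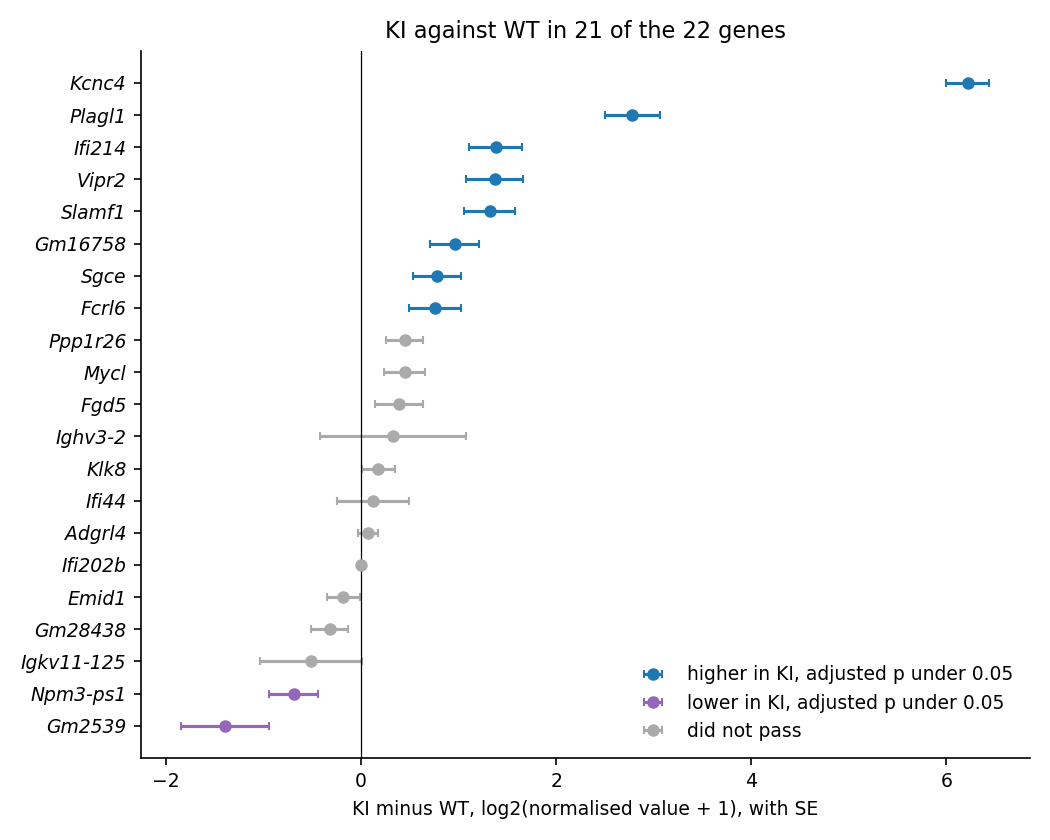
Difference of KI from WT for 21 of the 22 genes on the log2(value + 1) scale with 1 SE, coloured by the limma call. The 8 genes that rose are at the top, from Fcrl6 at 0.76 to Kcnc4 at 6.22, whose height depends on the pseudocount because WT is listed at 0.

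Within KI_Chd7del the 22 genes differed in how far their libraries lay apart. The median ratio of highest to lowest library was 1.53 over the 22 and 1.15 over the 11949 genes that met the floor. These sets were not matched for level, so the ratios do not show that the 22 vary more than genes of their level. Library 1 was lowest in 15 of the 22 (68.2%) and in 38.4% of the 11949. It was highest in 5 (22.7%, against 42.5% of the 11949), among them Plagl1, Mycl, Kcnc4 and Ppp1r26. Library 3 was lowest only for Plagl1 (4.5%, against 28.5% of the 11949). Of the 22 genes 16 were protein coding (72.7%, against 92.1% of the 11949). None lay on the X chromosome, which held 3.4% of the 11949. Other chromosomes also held none, among them 5 and 8, with 6.3% and 5.4% of the 11949.

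The upstream windows were also searched for TGTGGT on either strand, the core of the RUNX site that CBFB-bound factors recognise. RefSeq windows were found for 15 of the 22 genes, 16 windows in all. The motif occurred in 3 of the 16 windows, those of Fcrl6, Kcnc4 and 1 of the 2 starts of Emid1, and in 14.0% of all 32851 windows. The windows of Fcrl6 (chr1:172602552-172602801) and Kcnc4 (chr3:107458899-107459148), both on the minus strand, are shown because they hold the motif, marked in capitals, in genes that were called higher in KI.
Fcrl6: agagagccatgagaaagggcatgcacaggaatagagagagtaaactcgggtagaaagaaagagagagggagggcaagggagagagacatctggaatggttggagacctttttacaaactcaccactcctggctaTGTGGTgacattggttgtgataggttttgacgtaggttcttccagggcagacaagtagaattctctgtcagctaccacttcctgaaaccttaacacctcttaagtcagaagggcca
Kcnc4: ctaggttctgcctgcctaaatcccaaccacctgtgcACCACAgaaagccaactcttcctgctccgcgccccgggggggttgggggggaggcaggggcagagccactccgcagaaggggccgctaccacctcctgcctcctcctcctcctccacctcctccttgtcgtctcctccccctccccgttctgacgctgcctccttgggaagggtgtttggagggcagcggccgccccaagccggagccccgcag
The matches start at position -116 in Fcrl6 and -214 in Kcnc4. A match describes the letters and not binding. The window of Plagl1 held 19 CG dinucleotides and that of Fgd5 31, against a median of 6 over all windows, while those of Ifi202b and Ifi214 held 3 each.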

How the data were processed

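RNA-seq libraries of 9 samples in 3 groups were analysed from 1 table. The submitters' processing notes name the build GRCm38 and, with no roles or order, the tools STAR 2.4, RSEM, DESeq2 and CASAVA 1.8.2; the annotation is not given in the sources used here. The values have the unit score: the deposited values look like read numbers that the authors scaled by 1 factor for each library and then rounded, judged from gaps among the low values (no gene at 3 or 10 in WT library 3). No count test was run. Symbols came from GENCODE M21 for 42462 of 43629 identifiers. The test was limma 3.58.1 (trend option) on log2(value + 1), fitted over 9 libraries in 3 groups for genes reaching 10 in 3 or more libraries, and 2-sided p-values were adjusted by Benjamini-Hochberg over all genes at 0.05. Fold changes on this scale understate those of low genes. The test was also run on simulated counts with 1 small fixed spread, which these data need not share, so that run does not vouch for the calls here. Depth in reads is not given, so no counting intervals were computed.

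The 22 genes and the lists were chosen with earlier results of these data known. Of the 22 genes 1, and of the B cell list 1 gene, are counted, but their own values are not reported here. The naming rule took list members, the 12 largest ratios, the 10 highest KI_Chd7del means, the 6 largest called KI against WT changes in each direction, near neighbours, the 5 widest and 5 narrowest spreads, the 3 genes on each side of each threshold, Chd7, Cbfb, Myh11 and Kit, and left Gm and pseudogene names unnamed. Gm2539, Gm28438, Gm16758, Gm20658, Gm38050, Ighv3-2 and Npm3-ps1 are named outside it, as are the genes of lists and of the chromosome 1 interval that are no members; these were chosen after their values were seen. Similar genes were those with at least 90% identity over at least 50% of the transcript (BLAST 2.17.0), found for 4 of the 22. Upstream windows are from RefSeq (GRCm38.p6). Alternatives were other floors, ratios, scalings, pseudocounts and filters, limma-voom, a fit of 6 libraries, a replicate block and each library left out. Software was R 4.3.3 and Python 3.11.15 with pandas 2.3.3.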

Additional observations from a re-analysis of the deposited data

How the results depend on the processing

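The number of genes high only in KI_Chd7del was 68 with a ratio of 1.5 and 6 with a ratio of 3. Floors of 20 and 100 gave 30 and 17, other scalings 20 to 25 (18 to 22 of them among the 22), and leaving out 1 library 23 to 54, the highest without KI_Chd7del library 1. The median spread of 1.53 within KI_Chd7del was 1.2 to 1.36 with 1 of its libraries left out. In KI against WT the number of the 22 genes that rose was 6 to 10 over all settings, and 7 to 9 with 1 library left out. The number that fell was 1 with a pseudocount of 16, without a filter, scaled to the column total, with the replicate block and with limma-voom, 0 in a fit of only the 6 libraries, 4 with quantile normalisation, and 0 to 1 with 1 library left out. With the replicate block 8 rose and 1 fell. Same-numbered libraries correlated at -0.15 to 0.11 and 2 of 9 correlated best with their own number. The labels link the samples by number alone. So few libraries cannot settle whether a litter or batch was shared, and this was not tested. The KI against WT median over all genes was 0.02, and 0.25 when scaled to the column total. Genes whose direction turned had not passed the test: Emid1 (0.05 with the column total), Adgrl4 (-0.03 with upper-quartile factors, -0.03 to 0.16 with 1 library left out), Ifi44 (-0.15 with quantile normalisation, -0.05 to 0.37 with 1 library left out), Klk8 (-0.08 with quantile normalisation) and Igkv11-125 (-1.01 to 0.10 with 1 library left out). Of 431 single values 391 kept direction and side of the threshold, 27 lost the call, 6 gained it and 7 turned. Ifi202b, Ighv3-2 and Gm2539 could not be tested without a KI_Chd7del library, since they then missed the filter. No other member lay within 50 kb of another (0), 2 did within 200 kb and 6 within 1 Mb. These neighbour counts were not made over all genes that met the floor, so they have no background share. The cause of these changes was not tested. Settings for the stem cell, B cell and chromosome 1 counts were chosen after seeing the data.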

Other observations

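Some p200 genes near Ifi214 were high in 1 KI_Chd7del library. Ifi213 had 34, 48 and 43 (WT), 95, 201 and 61 (KI) and 7, 10 and 280 (KI_Chd7del). Ifi206 had 49, 48 and 446 and Ifi208 had 19, 35 and 205 in KI_Chd7del. Library 3 was the high one for each, as for the interferon list, while libraries 1 and 2 lay below all 3 WT libraries.

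Among genes that missed the floor, Ceacam3, of the carcinoembryonic antigen family, was listed at 0 in 5 of the 6 WT and KI libraries and at 1 in KI library 3, and at 41, 70 and 43 in KI_Chd7del. Nkx2-3, a homeobox transcription factor, had 12, 10 and 2 (WT), 17, 20 and 12 (KI) and 42, 46 and 51 (KI_Chd7del). Both were singled out after their values were seen.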
